A study of Mus musculus with 5 samples.

Results

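Antigen presentation by major histocompatibility complex (MHC) class II was followed through 10 genes, of 78334 in the count table. The 10 are the class II chain genes H2-Aa, H2-Ab1 and H2-Eb1, the peptide-loading genes H2-DMa and H2-DMb1, the invariant chain Cd74, the transactivator Ciita, and the costimulatory surface molecules Cd80, Cd83 and Cd86. They were picked by name with earlier results of these libraries known: Cd83 and Cd86 were included because both diabetic libraries exceeded the control, so the diabetes difference of the 10 genes is given as a description, with no test. All 10 were found, none had a count of 0 in any library, and all 10 passed the filter on low counts.

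Curcumin-treated mice were male C57BL/6 mice made diabetic with streptozotocin (70 mg/kg into the abdomen at 2 days of age), fed a diet with 60% of its energy as fat from 3 weeks of age for 8 weeks, and then given curcumin by gavage (50 mg/kg daily for 28 days, from 11 weeks of age). Diabetic mice had the same toxin and diet, with vehicle in place of curcumin. The control was fed standard chow and given vehicle; the labels do not say whether it had an injection at 2 days. There were 2 curcumin-treated libraries, 2 diabetic libraries and 1 control library, each labelled as visceral adipose tissue of males. The labels leave unsaid whether the libraries within a group are from separate animals, so p-values measure only the spread between these libraries, which may be technical.

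Class II molecules are pairs of an alpha and a beta chain that carry peptides of engulfed proteins to the cell surface, where CD4+ T cells read them. Cd74 guards the groove during assembly, proteases of the lysosome trim it away, and the H2-DM heterodimer takes out its last fragment so that a peptide can bind. Dendritic cells, macrophages and B cells carry the machinery under the control of Ciita, and in obese fat the macrophages and, in mice, also the adipocytes have been described as class II positive. Cd80 and Cd86 bind CD28 and CTLA4 on T cells and give the second signal for activation, and Cd83 marks mature dendritic cells and protects class II and Cd86 from degradation.

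The promoters of the class II genes show what the transactivator acts on: Ciita does not bind DNA itself but docks on factors bound to an X box and a Y box, an inverted CCAAT sequence. RefSeq promoter windows of 300 bases (build GRCm38.p6; the counts were made on GRCm39) were at hand for 5 of the 10 genes, namely H2-Aa, H2-Eb1, H2-DMa, H2-DMb1 and Cd80. The windows below belong to 3 of them and to H2-DMb2, a second gene for the DM beta chain. They are shown because each has a Y box with a second such element upstream. The counts of H2-Aa and H2-Eb1 followed nearly the same pattern, and those of H2-DMb1 and H2-DMb2 followed others. Capitals mark the Y box letters TGATTGG, the X box letters AACNNNTGA and, in H2-Aa, the cyclic AMP response element TGACGTCA, each searched on both strands, and no match overlaps another.
H2-Aa, chr17:34287774-34288073, minus strand: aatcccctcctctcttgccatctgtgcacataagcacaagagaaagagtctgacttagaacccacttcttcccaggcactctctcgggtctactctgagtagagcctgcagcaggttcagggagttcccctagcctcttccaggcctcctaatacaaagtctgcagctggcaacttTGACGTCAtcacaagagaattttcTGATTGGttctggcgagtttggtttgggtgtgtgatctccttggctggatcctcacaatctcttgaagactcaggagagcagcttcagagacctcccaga
H2-Eb1, chr17:34305617-34305916, plus strand: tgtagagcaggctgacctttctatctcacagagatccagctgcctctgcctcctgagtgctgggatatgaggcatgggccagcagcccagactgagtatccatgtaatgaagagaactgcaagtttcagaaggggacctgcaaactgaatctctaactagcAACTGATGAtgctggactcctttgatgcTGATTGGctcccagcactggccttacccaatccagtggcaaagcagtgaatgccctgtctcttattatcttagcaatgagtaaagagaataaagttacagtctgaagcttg
H2-DMb1, chr17:34152941-34153240, plus strand: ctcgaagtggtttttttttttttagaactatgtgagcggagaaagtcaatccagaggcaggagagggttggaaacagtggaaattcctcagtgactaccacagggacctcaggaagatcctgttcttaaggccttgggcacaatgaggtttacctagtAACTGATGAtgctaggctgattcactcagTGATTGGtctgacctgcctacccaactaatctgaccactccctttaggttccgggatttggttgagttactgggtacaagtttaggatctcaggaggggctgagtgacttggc
H2-DMb2, chr17:34144999-34145298, plus strand: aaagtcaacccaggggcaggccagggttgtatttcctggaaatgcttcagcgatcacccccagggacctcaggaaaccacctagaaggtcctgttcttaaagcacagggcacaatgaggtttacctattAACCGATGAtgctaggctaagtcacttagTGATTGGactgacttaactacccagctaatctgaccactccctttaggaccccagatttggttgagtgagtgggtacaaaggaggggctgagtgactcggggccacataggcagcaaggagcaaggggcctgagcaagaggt

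The Y box letters begin 50 bases before the annotated start of H2-Aa, 61 before that of H2-Eb1, 63 before that of H2-DMb1 and 92 before that of H2-DMb2. The X box letters lie upstream of them in H2-Eb1, H2-DMb1 and H2-DMb2, and in H2-Aa the response element lies upstream. The fixed X box letters had no match in H2-Aa, which does not show that its window lacks an X box. Among 32851 promoter windows in the table, 7.82% hold the Y box letters, 11.9% the X box letters, 1.79% the response element and 0.95% both X and Y box letters. The letters were chosen with these windows in view, and they were not found in the windows of H2-DMa and Cd80.

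The libraries differ in the tissues they hold. Total counts were 25378046 to 42422890 per library. A list of 16 adipocyte genes took 3.81% of the counts of diabetes 2 and 0.0200% to 0.485% of those of the other libraries, and 18 epididymis genes took 7.68% to 11.6% of the counts of curcumin-treated 2, diabetes 1 and control 1, 0.606% of curcumin-treated 1 and 14 counts of diabetes 2. In curcumin-treated 1, 165926 of the 168527 epididymis counts were of Crisp1, and the list had a median of 1.98 CPM per gene there, where the 3 libraries rich in such genes had 1882 to 2094 CPM. In diabetes 1 the adipocyte genes Pparg and Retn were at 0 counts. Smooth muscle genes (10 genes) took 5.10% of curcumin-treated 1 and at most 0.280% of any other library. Diabetes 1 held 1292 genes with 1 to 5 counts, against 4216 to 19751 in the other libraries, so few of its genes are seen at low counts. In bulk RNA, fewer cells of a type and less RNA per cell cannot be told apart.

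Diabetes 2 was the highest library for 9 of the 10 genes, all but H2-DMa. For the class II chains, Cd74 and Ciita, the 2 curcumin-treated libraries came next, and diabetes 1 and the control were lowest. H2-Aa, the alpha chain of the I-A molecule, was at 254 and 136 CPM (counts of the gene per 1000000 counts of its library) in the curcumin-treated pair, 39.8 CPM in diabetes 1 and 724 CPM in diabetes 2, and 38.1 CPM in control 1. Diabetes 2 held 18.2 times the level of diabetes 1, a gap within a group that spans both curcumin-treated libraries. H2-Ab1, its beta chain partner, was at 269 and 104 CPM in the curcumin-treated pair, at 64.0 and 475 CPM in the diabetic pair, and at 39.9 CPM in control 1.

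H2-Eb1, the beta chain of I-E, was at 282 and 159 CPM in the curcumin-treated libraries, 41.1 and 578 CPM in the diabetic ones and 36.7 CPM in the control. C57BL/6 mice lack a working alpha chain gene for I-E, so H2-Eb1 is read here as a transcript of the same regulon and not as a surface molecule. Cd74 was at 611 and 204 CPM with curcumin, 116 and 873 CPM in diabetes and 105 CPM in the control. All 4 genes gave the libraries the same order: diabetes 2, curcumin-treated 1, curcumin-treated 2, diabetes 1, control 1. At the low end of that order the counting intervals of diabetes 1 and control 1 overlapped for H2-Aa (37.4 to 42.3 CPM against 35.8 to 40.5 CPM, exact Poisson 95%) and for H2-Eb1 (38.6 to 43.7 CPM against 34.5 to 39.1 CPM), but not for H2-Ab1 and Cd74. Such intervals cover counting error only.

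Ciita, the transactivator, had 215 and 135 counts (7.73 and 3.18 CPM) in the curcumin-treated libraries, 8 and 472 counts (0.314 and 18.6 CPM) in the diabetic ones and 21 counts (0.777 CPM) in the control. Diabetes 2 thus stood 59.2 times above diabetes 1, the widest gap between these 2 libraries among the 10 genes. Diabetes 1 and control 1 changed places against the order of the chains, with overlapping counting intervals (0.136 to 0.619 CPM in diabetes 1 and 0.481 to 1.19 CPM in control 1). The 8 counts of diabetes 1 lie in the range of counts that is thinly filled in that library.

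**Figure D1:**
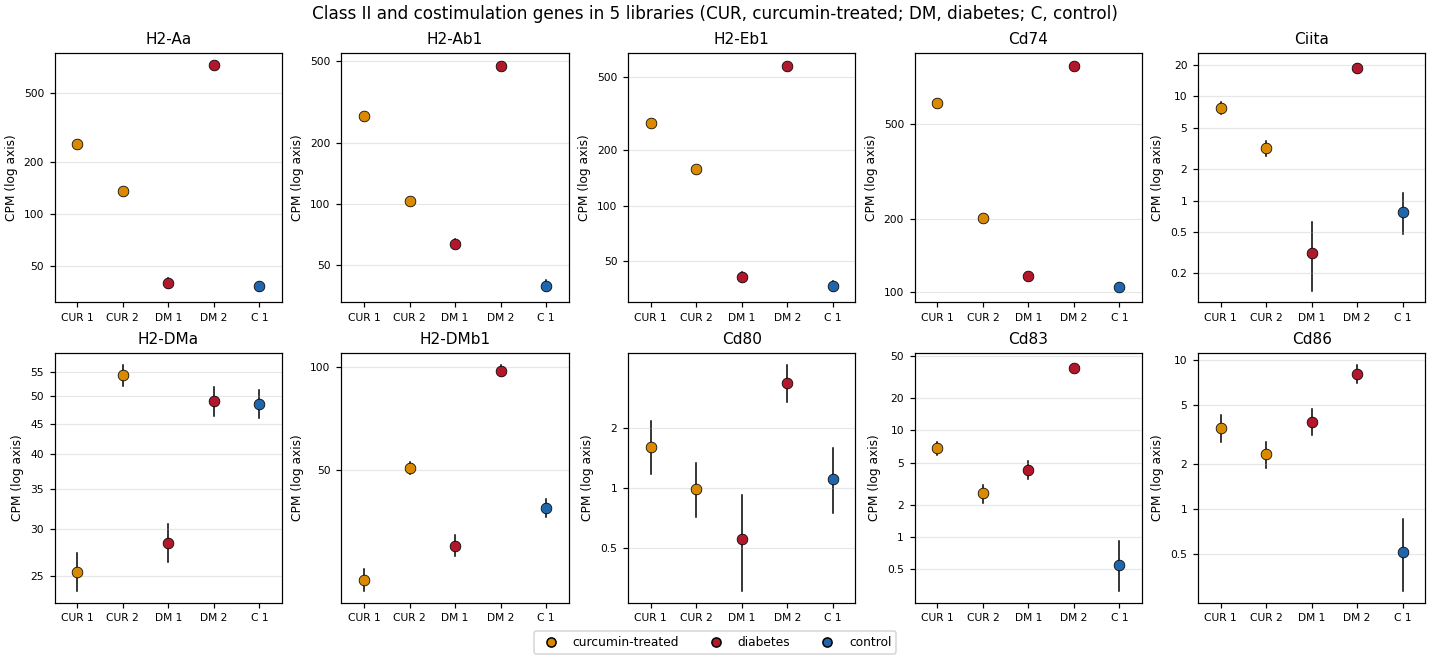
Levels of the 10 genes in CPM, on log axes, in the curcumin-treated (CUR), diabetic (DM) and control (C) libraries; each point is 1 library and bars are exact Poisson 95% intervals of the count. All genes but H2-DMa (9 of the 10) peak in diabetes 2, H2-DMa stays within 25.4 to 54.2 CPM, and Cd83 and Cd86 are lowest in the control.

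The chain genes did not move in a fixed proportion. H2-Ab1 held 33.4% of the counts of the 3 chain genes in curcumin-treated 1 (95% Wilson interval 32.8% to 34.1%) and 26.0% in curcumin-treated 2 (25.3% to 26.7%). It held 44.2% in diabetes 1 (42.6% to 45.8%), 26.7% in diabetes 2 (26.3% to 27.1%) and 34.8% in control 1 (33.1% to 36.4%). Its share was highest in diabetes 1, and the 2 libraries differed by more than counting error within the curcumin-treated and within the diabetic group. By profile over the 5 libraries, measured as the root mean square difference of centred log2 CPM, the closest pairs of the 10 genes were H2-Aa with H2-Eb1 (0.19) and H2-Ab1 with Cd74 (0.20).

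The peptide-loading genes followed another pattern. H2-DMa, the alpha chain of H2-DM, was at 25.4 and 54.2 CPM in curcumin-treated 1 and 2, at 28.4 and 49.1 CPM in diabetes 1 and 2, and at 48.5 CPM in control 1. Its highest library was 2.13 times its lowest, against 19.0 times for H2-Aa. H2-DMb1, a beta chain of H2-DM, was at 23.7 and 50.5 CPM with curcumin, 29.9 and 97.9 CPM in diabetes and 38.5 CPM in the control. Curcumin-treated 1, second highest for the chains, was thus the lowest library for both.

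H2-DMb2, named after its values were seen, went its own way. It was at 5.00 and 80.8 CPM in curcumin-treated 1 and 2, at 56.5 and 5.24 CPM in diabetes 1 and 2, and at 62.2 CPM in control 1. It held 61.5% of the counts of the 2 beta chain genes in curcumin-treated 2, 65.4% in diabetes 1 and 61.7% in control 1, but 17.4% in curcumin-treated 1 and 5.08% in diabetes 2. The 3 libraries where it was high are the 3 with 7.68% or more of their counts in epididymis genes, whose part in this result was not tested. H2-DMb1 and H2-DMb2 are near-identical neighbours, and how reads that match both were counted is not given in the sources used here, so their split is uncertain.

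**Figure D2:**
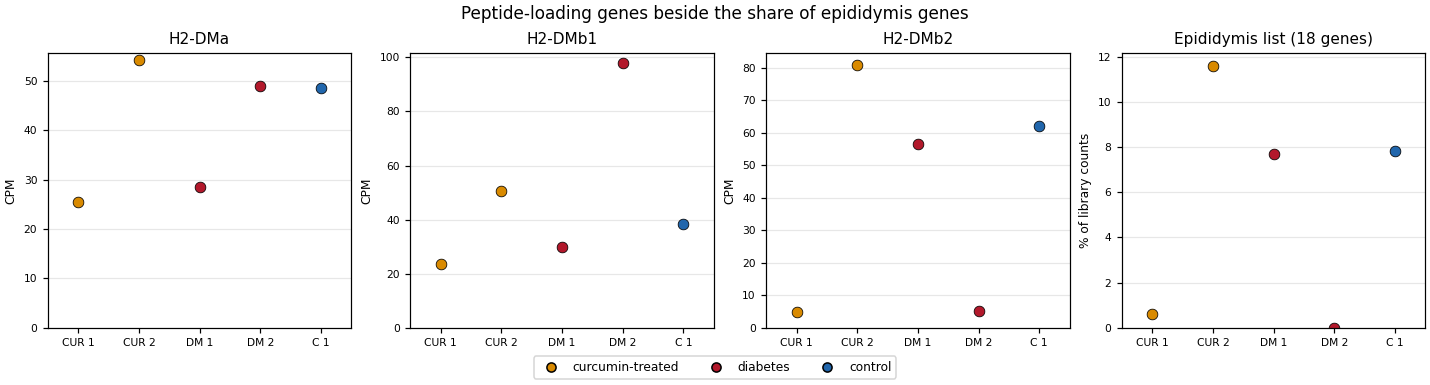
Levels of H2-DMa, H2-DMb1 and H2-DMb2 in CPM, and the percent of each library's counts in 18 epididymis genes, by library (1 point each, curcumin-treated, diabetes, control from left to right). H2-DMb2 is at 5.00 and 5.24 CPM in the 2 libraries with few epididymis counts and at 56.5 to 80.8 CPM in the other 3.

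Of the costimulators, Cd83 and Cd86 were lowest in the control and Cd80 was not. Cd83 had 189 and 109 counts (6.79 and 2.57 CPM) in the curcumin-treated libraries, 109 and 984 counts (4.28 and 38.8 CPM) in the diabetic ones, and 15 counts (0.555 CPM) in the control. Cd86 had 97 and 99 counts (3.49 and 2.33 CPM) with curcumin, 98 and 205 counts (3.85 and 8.08 CPM) in diabetes, and 14 counts (0.518 CPM) in the control. These are the values on which the 2 genes were chosen. By that choice both genes were above the control in diabetes 1 too, at 7.72 times for Cd83 and 7.43 times for Cd86. In that library H2-Aa was at 1.05 times the control and Cd74 at 1.11 times. Since the choice fixed the direction for Cd83 and Cd86, nothing is read from this contrast.

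Cd80, the other ligand of CD28, had 45 and 42 counts (1.62 and 0.990 CPM) in the curcumin-treated libraries, 14 and 86 counts (0.550 and 3.39 CPM) in the diabetic ones and 30 counts (1.11 CPM) in the control. The control lay between the 2 libraries of each other group. The counting intervals of curcumin-treated 2 (0.714 to 1.34 CPM), diabetes 1 (0.301 to 0.923 CPM) and control 1 (0.749 to 1.58 CPM) overlapped.

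Curcumin-treated against diabetic libraries was the comparison open to a test, although it shares the diabetic libraries on which Cd83 and Cd86 were chosen. No member passed. In edgeR's quasi-likelihood test with Benjamini-Hochberg adjustment over 29855 genes, 0 of the 10 passed an adjusted p of 0.05, where the same test called 0.0% of all genes tested. All genes gave 696 at an unadjusted p under 0.05 and the 10 gave 0; limma-voom called 0 genes, and DESeq2 called 95, none of them a member. Cd83 had the smallest p of the 10, with a mean of 4.68 ± 2.99 CPM in curcumin-treated libraries and 21.5 ± 24.4 CPM in diabetic ones (SD, n = 2 each). Its log2 fold change was −2.34 (SE 1.21, edgeR adjusted p = 0.852). Without diabetes 2 its log2 fold change was 0.17, and over all alternatives its adjusted p ran from 0.529 to 1.

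Cd86 was the 1 member of 10 whose libraries did not overlap, with both curcumin-treated libraries below both diabetic ones; 9.72% of all genes tested were placed so. It averaged 2.91 ± 0.816 CPM with curcumin and 5.96 ± 2.99 CPM in diabetes (SD, n = 2 each), a log2 fold change of −1.10 (SE 0.90, edgeR adjusted p = 0.856). The gap rests on curcumin-treated 1 at 3.49 CPM below diabetes 1 at 3.85 CPM, whose counting intervals overlap (2.83 to 4.25 CPM in curcumin-treated 1 and 3.13 to 4.69 CPM in diabetes 1). No member had both curcumin-treated libraries above both diabetic ones, a placing that 17.9% of all genes had.

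The fitted fold changes of 9 of the 10 were below 0, where 48.1% of all genes were, with a median of −0.75 for the 10 and 0.05 for all genes. The chains stood at −1.10 (SE 1.30) for H2-Aa, −0.66 (SE 1.06) for H2-Ab1 and −0.61 (SE 1.21) for H2-Eb1, with Cd74 at −0.42 (SE 1.11) and Ciita at −0.94 (SE 1.67). H2-DMb1 was at −0.81 (SE 0.81), Cd80 at −0.70 (SE 1.29) and H2-DMa at 0.04 (SE 0.65). With all 5 libraries, limma-voom put 5 of the 10 below 0 and turned H2-Aa (0.14), H2-Eb1 (0.47), Cd74 (0.15) and Ciita (1.07) positive, and a fit with the replicate number as a block put 6 below 0. The signs also rested on diabetes 2: without it 1 of the 10 was below 0, the median was 1.45, and H2-Aa stood at 2.35 and Ciita at 4.15. With curcumin-treated 1, curcumin-treated 2 or diabetes 1 left out in its place, 9 or 10 of the 10 were below 0.

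**Figure D3:**
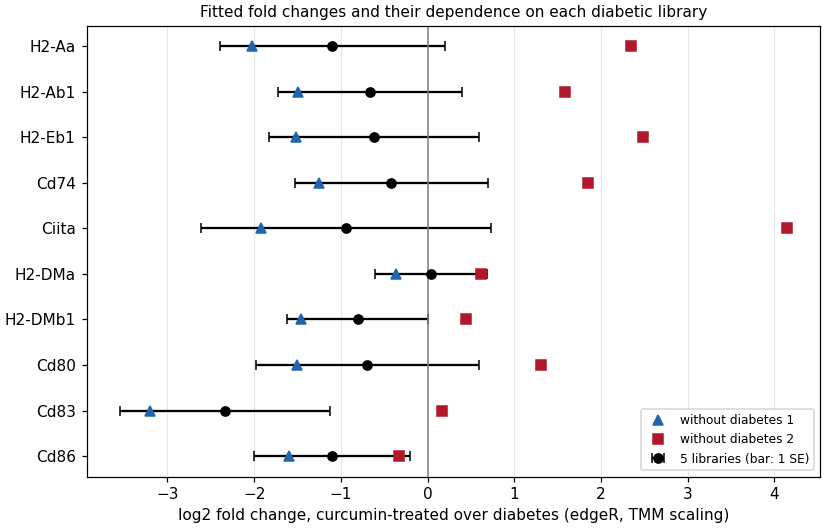
Fitted log2 fold changes of the 10 genes, curcumin-treated over diabetes, from all 5 libraries (black, bars of 1 SE) and with diabetes 1 (triangles) or diabetes 2 (squares) left out. Without diabetes 2 the squares of 9 genes lie above 0, and that of Cd86 is at −0.33.

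Diabetes against the control is given as a description. Both diabetic libraries lay above the control for 6 of the 10 genes (H2-Aa, H2-Ab1, H2-Eb1, Cd74, Cd83 and Cd86), where 17.3% of all genes tested did so; since the choice of genes used this comparison, nothing is read from that count. Fitted log2 fold changes were 3.56 for H2-Aa (SE 1.91), 2.98 for H2-Ab1 (SE 1.52), 3.31 for H2-Eb1 (SE 1.77) and 2.47 for Cd74 (SE 1.55). They were 5.49 for Cd83 (SE 1.94) and 3.70 for Cd86 (SE 1.35), 3.84 for Ciita (SE 2.53), 1.04 for Cd80 (SE 1.65), 0.93 for H2-DMb1 (SE 1.03) and −0.15 for H2-DMa (SE 0.79). Without diabetes 2 Cd83 stood at 2.98 and Cd86 at 2.92, both positive by the choice of these genes. In that fit H2-Aa was at 0.10, H2-Ab1 at 0.73, H2-Eb1 at 0.20, Cd74 at 0.19 and Ciita at −1.25. The fitted fold changes of the chains over the control thus rest on diabetes 2.

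Curcumin-treated libraries against the control share that single control library, and are described without a test too. Both lay above the control for 7 of the 10 genes, the 6 above and Ciita, where 24.6% of all genes tested did. H2-Aa was at 6.66 and 3.57 times the control in curcumin-treated 1 and 2, H2-Eb1 at 7.67 and 4.33 times and Cd74 at 5.84 and 1.95 times. Cd83 was at 12.2 and 4.63 times and Cd86 at 6.73 and 4.50 times. H2-DMa was at 0.524 and 1.12 times, H2-DMb1 at 0.615 and 1.31 times and Cd80 at 1.46 and 0.892 times, so that for these 3 the control fell between the 2 libraries. The median log2 fold change of all genes was 0.17 here, and 0.03 when scaled by library totals alone. Under that scaling the fitted log2 fold change of H2-DMb1 turned negative.

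Diabetes 2, the highest library for the chains, was the highest for all 15 macrophage genes and for 7 of 11 dendritic cell genes, but for only 2 of 11 B cell genes, of which 9 were highest in curcumin-treated 1. A list of 15 macrophage genes took 0.0550% of curcumin-treated 1 and 0.0380% of curcumin-treated 2, 0.0208% of diabetes 1 and 0.287% of diabetes 2, and 0.0251% of control 1. For 11 dendritic cell genes the shares were 0.00818% and 0.00552% with curcumin, 0.00328% and 0.0154% in diabetes, and 0.00510% in the control. The 11 B cell genes took 0.0248% and 0.00230% with curcumin, 0.000358% and 0.102% in diabetes, and 0.000699% in the control. Ighm, the heavy chain of immunoglobulin M, made up 98.5% of them in diabetes 2. In diabetes 1 the B cell genes Ms4a1, Cd79a, Cd79b, Cd22, Blk and Ighd and the dendritic cell genes Flt3, Xcr1, Cd209a and Batf3 were at 0 counts, as were Timd4 and Lyve1 of the macrophage list, while H2-Aa had 1013 counts and Cd74 had 2952. In control 1, Ms4a1, Cd79a, Pax5 and Fcer2a were at 0. No upper limit is given for the zeros of diabetes 1, since low counts are scarce in that library and the smallest count above 0 among all listed genes there was 6; in control 1 a count of 0 allows up to 0.111 CPM. For curcumin against diabetes, 0 genes of these lists passed the test: all 15 macrophage genes had a negative fold change (median −1.87, and 1.46 without diabetes 2), as did 8 of 11 dendritic cell genes (median −0.09), while 9 of 11 B cell genes had a positive one (median 1.96). The part of any of these cells in the class II levels was not tested.

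Set against the macrophage list within each library, a ratio that does not depend on the library total, the chains and Cd74 gave a different order. Their summed counts were 2.57 times those of the macrophage list in curcumin-treated 1 (exact 95% interval 2.53 to 2.62) and 1.59 times in curcumin-treated 2 (1.55 to 1.62). The ratio was 1.25 in diabetes 1 (1.21 to 1.30) and 0.924 in diabetes 2 (0.914 to 0.933), and 0.872 in control 1 (0.842 to 0.903). Both curcumin-treated libraries lay above both diabetic ones, and both diabetic ones above the control, whereas by library total diabetes 2 was the highest. With 2 libraries against 2 an exact permutation test cannot go below p = 0.333, so the ratio was not tested. The median B cell gene was at 4.75 and 0.165 CPM in the curcumin-treated libraries, 0 and 0.552 CPM in the diabetic ones and 0.0370 CPM in the control; the part of B cells in the ratio was not tested.

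Against 7 leukocyte genes the order depended on 1 of them. As planned, with Cd52 in the list, the ratio was 0.578 and 1.57 in the curcumin-treated libraries, 0.575 and 3.04 in the diabetic ones and 0.212 in the control. Cd52, a surface antigen of lymphocytes that is also made by the epididymal epithelium, held 89.7% and 66.5% of that list's counts with curcumin, 86.3% and 6.31% in diabetes and 93.3% in the control. Without Cd52, a choice made after its values were seen, the ratio was 5.60 (5.46 to 5.75) and 4.69 (4.56 to 4.83) with curcumin, 4.18 (3.96 to 4.42) and 3.24 (3.19 to 3.29) in diabetes and 3.15 (2.99 to 3.32) in the control. That is the same order of libraries as against the macrophage list, with overlapping intervals for diabetes 2 and control 1.

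The other members differed from the chains on this scale too. Cd83 and Cd86 together reached 0.0187 and 0.0129 of the macrophage list with curcumin, 0.0391 and 0.0163 in diabetes, and 0.00427 in the control (0.00286 to 0.00613). These are the same counts on which both genes were chosen, so the place of the control below the diabetic libraries is no added support. H2-DMa and H2-DMb1 together reached 0.0893 and 0.276 with curcumin, 0.280 and 0.0512 in diabetes, and 0.346 in the control, the reverse of the order of the chains by library total, with overlapping intervals for curcumin-treated 2 and diabetes 1.

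**Figure D4:**
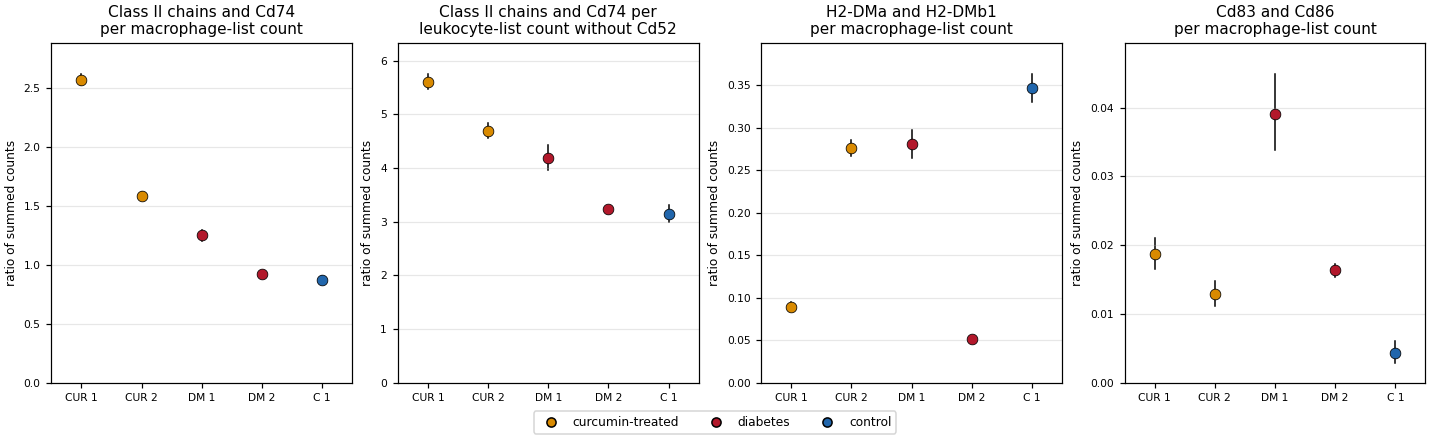
Ratio of summed counts within each library, with exact 95% intervals, for the class II chains with Cd74 per macrophage-list count and per leukocyte-list count without Cd52, and for the H2-DM genes and for Cd83 with Cd86 per macrophage-list count. The chains with Cd74 run from 2.57 in curcumin-treated 1 to 0.872 in control 1 in the first panel, and the H2-DM genes run from 0.0512 in diabetes 2 to 0.346 in control 1.

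Other genes of the pathway were described from lists. H2-Oa, which pairs with H2-Ob to restrain H2-DM, had 82 and 63 counts with curcumin. It had 0 and 28 counts in diabetes and 0 in the control. H2-Ob had 152 and 70 counts with curcumin, 69 and 64 in diabetes and 5 in the control. For H2-Ob the curcumin-treated and diabetic libraries overlapped in CPM. Both genes were named after their values were seen. Low counts are scarce in diabetes 1, so the 0 of H2-Oa there gives no upper limit. Of 12 further genes of class II assembly and turnover, 0 passed the test for curcumin against diabetes, 4 had a positive and 8 a negative fold change (median −0.87). The lysosomal protease cathepsin B (Ctsb) was at 844 and 489 CPM with curcumin, 499 and 4915 CPM in diabetes and 413 CPM in the control, a peak in diabetes 2 like that of the chains. Ctsd was at 754 and 597 CPM with curcumin, 310 and 2148 CPM in diabetes and 424 CPM in the control. Ctsl, which in mice processes the invariant chain in thymus epithelium, was at 249 and 240 CPM, 386 and 1152 CPM, and 369 CPM in the same order. Both curcumin-treated libraries lay below both diabetic ones for Ctsl (log2 fold change −1.71, SE 0.79, edgeR adjusted p = 0.852). Of the 12 genes 2 were so placed, where 9.72% of all genes tested were.

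The factors that Ciita works with varied less than Ciita: the highest library was 1.39 to 3.07 times the lowest for 8 of 11 transcription genes and 38.3 times for Spi1, a myeloid factor named after its values were seen, against 59.2 times for Ciita. Of these 11, among them the RFX and NF-Y subunits, Creb1, Irf1 and Spi1, 0 passed, 6 had a positive and 5 a negative fold change with curcumin (median 0.10). Creb1 was at 28.3 and 30.8 CPM with curcumin, 27.2 and 37.9 CPM in diabetes and 31.3 CPM in the control. The NF-Y subunit Nfyc was at 34.0 and 45.4 CPM with curcumin, 25.7 and 16.2 CPM in diabetes and 32.4 CPM in the control, and the interferon-induced factor Irf1 at 50.3 and 27.9 CPM, 16.4 and 24.0 CPM, and 30.6 CPM. For both, the curcumin-treated libraries lay above the diabetic ones. Of the 11 transcription genes 3 were so placed, where 17.9% of all genes tested were. The log2 fold changes of Nfyc and Irf1 were 0.95 (SE 0.49) and 0.90 (SE 0.53), with an edgeR adjusted p of 0.852 each.

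Interferon gamma, the chief inducer of Ciita outside dendritic and B cells, was near the limit of detection: Ifng had 4 and 8 counts with curcumin, 0 and 6 in diabetes and 0 in the control. Its receptor chain Ifngr1 was at 80.8 and 51.6 CPM with curcumin, 67.7 and 343 CPM in diabetes and 73.2 CPM in the control. The other chain, Ifngr2, ran the other way within the diabetic pair, at 33.2 and 106 CPM with curcumin, 151 and 54.9 CPM in diabetes and 114 CPM in the control. Of 7 tested genes of this axis 0 passed, with 1 positive and 6 negative (median −0.61).

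On the costimulatory side, 0 of 7 tested further genes passed, with 3 positive and 4 negative fold changes (median −0.66). Icosl, the ligand of ICOS, was at 15.5 and 37.5 CPM with curcumin, 28.4 and 16.4 CPM in diabetes and 53.7 CPM in the control, its highest library. Of 10 tested T cell genes 0 passed, with 4 positive and 6 negative (median −0.33). Cd4, the coreceptor that binds class II, had 153 and 81 counts with curcumin, 55 and 64 in diabetes and 14 in the control. By library total that was 5.50 and 1.91 CPM with curcumin, 2.16 and 2.52 CPM in diabetes and 0.518 CPM in the control, so the curcumin-treated and diabetic libraries overlapped and the control was lowest.

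Class I presentation, which displays peptides made inside the cell and served as a contrast, was described by 13 genes. H2-K1, a class I heavy chain, was at 587 and 578 CPM with curcumin, 788 and 1503 CPM in diabetes and 674 CPM in the control. Both curcumin-treated libraries thus lay below both diabetic ones (log2 fold change −1.02, SE 0.72, edgeR adjusted p = 0.852). Of the 13 genes 2 were so placed, where 9.72% of all genes tested were. B2m, the class I light chain, was at 1626 and 574 CPM with curcumin, 763 and 2543 CPM in diabetes and 983 CPM in the control. Of the 13, 0 passed, 4 were positive and 9 negative (median −0.39).

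Of 14173 named genes that averaged 1 or more on the log2 CPM scale, the 5 whose profiles lay nearest to the mean profile of the chains and Cd74 were Pi16 (root mean square difference 0.24 on the log2 scale over the 5 libraries), Phlda3 (0.25), Cables1 (0.26), Rac2 (0.27) and Nfkbid (0.29). Pi16, a marker of a fibroblast-like progenitor in fat, was at 23.7 and 14.8 CPM with curcumin, 3.65 and 52.4 CPM in diabetes and 4.37 CPM in the control. Rac2, a GTPase of blood cells, was at 21.5 and 12.1 CPM, 5.30 and 44.1 CPM, and 5.29 CPM in the same order. Nearest to Cd83 and Cd86 were Casp4 (0.41), Ptpn7 (0.47), Atf3 (0.49), Gas7 (0.51) and Opn3 (0.52). Casp4, an inflammatory caspase, was at 3.92 and 3.87 CPM with curcumin, 3.38 and 15.4 CPM in diabetes and 0.777 CPM in the control. It was picked for its likeness to Cd83 and Cd86, so its low level in the control is no added support.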

How the data were processed

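The deposited table holds unnormalised read counts as whole numbers for 78334 Ensembl genes. Paired reads came from a strand-marking poly-A kit, per the labels' protocols, and FastQC, featureCounts and the build GRCm39 are listed in the submitters' processing notes. Aligner, annotation release and strand setting: not given in the sources used here, so antisense overlaps cannot be resolved. Symbols matched 51486 gene IDs (65.7%), and 172 of 173 listed symbols were found. The genes and lists were chosen with earlier results of these data known.

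Levels are CPM of the library total. Fold changes come from 1 model of all 5 libraries in edgeR 4.0.16 (R 4.3.3), with filterByExpr, TMM scaling and the robust quasi-likelihood test, two-sided, Benjamini-Hochberg adjusted, threshold 0.05. It had 2 residual degrees of freedom, a biological coefficient of variation of 1.07, and assumes that the single control varies like the other groups. SE is the absolute log2 fold change divided by the root of the F statistic. A count of 0 was read as up to 3 counts, except in diabetes 1. Library depth was 25378046 to 42422890 counts. The fit was also run on simulated counts with known fold changes, and the outcome is not given here. Alternatives were other scalings, filters, limma-voom 3.58.1, DESeq2 1.42.0, a replicate block and leaving out libraries.

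Named beside the 10 genes were up to 3 members per list by mean CPM and genes nearest in profile. H2-DMb2, H2-Oa, H2-Ob, Spi1, Ifng and the markers at 0 counts were named after their values were seen. Profiles use log2 CPM with TMM scaling and a prior count of 2.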

Additional observations from a re-analysis of the deposited data

How the results depend on the processing

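No alternative brought a member past the threshold. DESeq2 called 95 genes for curcumin-treated against diabetes, 58 for diabetes against control and 77 for curcumin-treated against control, where edgeR called 0 in each; the cause was not tested. For curcumin against diabetes, 9 members had a negative fold change; limma-voom gave 5, and turned H2-Aa (0.14), H2-Eb1 (0.47), Cd74 (0.15) and Ciita (1.07). H2-DMa was at −0.016 with DESeq2's size factors and −0.016 in DESeq2 itself. Leaving out 1 library each gave 1 to 10 negative members, with a median of −1.51 to 1.45. Over all alternatives, fold changes ran from −2.03 to 2.35 for H2-Aa, −1.50 to 1.59 for H2-Ab1 and −1.52 to 2.49 for H2-Eb1. Ranges were −0.77 to 0.62 for H2-DMa, −1.62 to 0.45 for H2-DMb1 and −1.26 to 1.85 for Cd74. They were −1.92 to 4.15 for Ciita, −1.50 to 1.31 for Cd80 and −3.20 to 0.17 for Cd83. Every upper end was the fit without diabetes 2; Cd74 was at 0.10 without curcumin-treated 2.

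For diabetes against control 1 member was negative, with 0 to 4 negative and a median of 0.15 to 4.00 when a library was left out. For curcumin-treated against control 1 was negative, 2 with library totals, and 0 to 2 when a library was left out.

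Over genes, the within-group differences between replicates 1 and 2 had a correlation of −0.41. The libraries differ in the tissues they hold, so this value cannot show whether the replicate numbers pair them. With the replicate block, edgeR called 0 genes, 6 members were negative for curcumin against diabetes (H2-Aa 0.12, H2-Eb1 0.45, H2-DMa −0.016, Cd74 0.14, Ciita 0.90), 2 for diabetes against control and 3 for curcumin-treated against control. The crossed pairing, chosen after seeing the data, called 0 genes. Depth limits Ciita, Cd80, Cd83 and Cd86, each with 8 to 15 counts in its lowest library.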
